A study of Mus musculus with 12 samples.

Results

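The expressed Zfp genes are the genes whose array symbol is Zfp followed by digits alone and whose signal stood above background in premalignant mouse pre-B cells. They were chosen by a rule on measured signal: a probe had to have a detection p under 0.05 on at least 3 of the 12 arrays, and the probe of highest mean log2 level stood for its gene. The array carried 283 such symbols on 489 probes, and 183 of them met the rule, against 12631 genes of 30774 array symbols in all. The samples were sorted pre-B cells of C57BL/6 mice, and all 12 carried the Eµ-Myc transgene, in which an immunoglobulin heavy-chain enhancer drives Myc in B-lineage cells. Both copies of Smchd1 held a gene trap in the 6 null samples and were normal in the 6 wildtype samples. Smchd1 encodes an SMC hinge protein that keeps the inactive X chromosome and some gene clusters silent. The labels give neither the age of the mice nor the number of mice behind a sample, so p-values here measure only the spread between samples, which may be technical. The contrast of null with wildtype asks how loss of Smchd1 went with expression of these genes before lymphoma.

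Zinc finger proteins of the C2H2 kind fold short loops around zinc ions and read DNA with strings of such fingers. Many carry a KRAB domain, which binds the corepressor Trim28 (KAP1) and through it brings the H3K9 methyltransferase Setdb1, HP1 proteins and histone deacetylases to transposons and imprinted regions. KRAB zinc finger genes lie in clusters that grew by tandem duplication, so that neighbours are often close relatives. The symbol Zfp is wider than this family. Among the 183 genes, 160 carried a symbol still in use in the RefSeq gene table, 21 were matched through a synonym, and 2 (Zfp264 and Zfp67) were unmatched. The renamed ones include Zfp313, now Rnf114, and Zfp294, now Ltn1, both ubiquitin ligases, as well as Zfp162, now Sf1, a splicing factor, and Zfp259, now Zpr1. For these the label zinc finger transcription factor does not hold, and all are described here under the array's symbol.

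The data of the whole series bear on these genes in a few ways. Between 15396 and 16587 of 45281 probes were detected per array, and of the 183 Zfp genes between 153 (null 5) and 170 (wildtype 5). The brightest Smchd1 probe lay at 9.47 ± 0.14 (SD, n = 6) in wildtype and 5.05 ± 0.35 (SD, n = 6) in null samples on the log2 intensity scale used throughout, so the labels held. Of the pre-B markers 11 of 14 were tested, Vpreb1, Igll1 and Rag1 among them. Some null arrays carried raised markers of other cells: relative to the wildtype mean, the myeloid list stood 3.41 log2 units higher in null 3, the plasmacytoid dendritic list 2.36 in null 5, and the interferon list 3.80 in null 5, 2.93 in null 6 and 1.95 in null 3. Null 4, 5 and 6 were hybridised with wildtype 1, 2 and 3 on BeadChip 1, and null 1, 2 and 3 with wildtype 4, 5 and 6 on BeadChip 2.

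In wildtype cells the Zfp genes spanned a wide range of levels, with a median log2 intensity of 6.76 and extremes of 4.57 and 11.00. Levels of different probes depend on the probe as well as on the transcript, so this range is a description of signal and sets no gene against another. The brightest signals came from Zfp259 (11.00), which encodes a protein that binds growth factor receptors and translation factors, Zfp496 (10.78), Zfp330 (10.71), which encodes a nucleolar protein, Zfp131 (10.66), Zfp277 (10.54) and Zfp212 (10.36). Of the 183 genes, 138 were detected on all 12 arrays. The dimmest were Zfp365 (4.57), Zfp248 (4.69), Zfp617 (4.69), Zfp42 (4.71), Zfp786 (4.75) and Zfp459 (4.79). Zfp42, known as Rex1, is a marker of embryonic stem cells, and it was detected on 2 wildtype arrays and 1 null array.

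The detection rule cut through a group of dim genes. Just inside it, 9 genes were detected on exactly 3 arrays, with Zfp235 on 3 wildtype and 0 null arrays and Zfp365 on 0 wildtype and 3 null arrays. Just outside it, Zfp169, Zfp329, Zfp287, Zfp78 and Zfp92 were detected on 2 arrays, with wildtype means from 4.71 (Zfp92) to 4.89 (Zfp78). Altogether 100 Zfp symbols did not meet the rule, and 85 of these were detected on 0 arrays. They include Zfp57 and Zfp568, which act in silencing of imprinted and other loci in the embryo, and Zfp423, a relative of Zfp521 that also binds Ebf1. Zfp617, Zfp365 and Zfp235 met the rule through 1 genotype alone, so a difference between genotypes was built into their selection.

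Only 3 of the 183 Zfp genes passed the test between genotypes, or 1.64%, against 1.22% of all 17607 tested probes. Zfp367 and Zfp710 fell in null cells, while 0.687% of all probes fell, and Zfp617 rose, while 0.534% of all probes rose. Zfp617 met the detection rule through null arrays alone, so its rise was favoured by the selection. All 3 changes were small, under 1.5-fold. The test was limma's moderated fit of null against wildtype with Benjamini-Hochberg adjustment over all tested probes, called at an adjusted p under 0.05. The share of called Zfp genes was thus near that of all probes. In cells sorted in bulk, fewer cells of a type and less RNA per cell cannot be told apart.

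A promoter window of each called gene is printed here, and that of Zfp292, whose second probe also fell, is set beside them. Each runs from 250 bases before to 50 bases after the RefSeq transcription start on GRCm38.p6, 5′ to 3′ on the gene's strand. Only the most upstream window of a gene was used, so other starts of the same gene may differ. Capitals mark exact matches, on either strand, to the E-box CACGTG that Myc and Max bind, to the ETS motif CCGGAAG, to the YY1 motif AAGATGG or to the E2F motif GCGGGAA. Zfp367 (chr13:64153150-64153449, minus strand) held an E2F match, Zfp710 (chr7:80024564-80024863, plus strand) held no match, Zfp617 (chr8:71922575-71922874, plus strand) held an ETS and a YY1 match, and Zfp292 (chr4:34882899-34883198, minus strand) held 2 E-boxes and a YY1 match.
Zfp367: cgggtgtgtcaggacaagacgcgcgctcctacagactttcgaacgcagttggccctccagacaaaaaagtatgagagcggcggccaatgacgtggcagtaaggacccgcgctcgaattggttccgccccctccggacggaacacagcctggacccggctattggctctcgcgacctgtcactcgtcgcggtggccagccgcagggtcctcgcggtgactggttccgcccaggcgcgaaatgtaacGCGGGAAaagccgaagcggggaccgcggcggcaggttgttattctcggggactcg
Zfp710: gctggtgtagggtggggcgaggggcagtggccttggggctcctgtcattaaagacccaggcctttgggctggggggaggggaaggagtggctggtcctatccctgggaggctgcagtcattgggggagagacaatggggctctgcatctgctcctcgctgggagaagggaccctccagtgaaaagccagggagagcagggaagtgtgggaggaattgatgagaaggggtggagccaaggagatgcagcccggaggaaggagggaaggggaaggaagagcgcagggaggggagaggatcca
Zfp617: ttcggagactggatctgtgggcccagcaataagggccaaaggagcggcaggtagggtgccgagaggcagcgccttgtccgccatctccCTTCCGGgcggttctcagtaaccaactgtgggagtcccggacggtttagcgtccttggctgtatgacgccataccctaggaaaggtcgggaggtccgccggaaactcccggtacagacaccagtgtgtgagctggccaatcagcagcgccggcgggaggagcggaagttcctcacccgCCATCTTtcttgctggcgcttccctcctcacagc
Zfp292: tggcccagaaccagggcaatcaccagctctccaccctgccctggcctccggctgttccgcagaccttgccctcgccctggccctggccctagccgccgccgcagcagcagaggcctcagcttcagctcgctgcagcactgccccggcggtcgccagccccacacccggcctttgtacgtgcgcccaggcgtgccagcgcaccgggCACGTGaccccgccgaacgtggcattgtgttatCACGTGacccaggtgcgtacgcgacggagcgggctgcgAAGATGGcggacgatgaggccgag
The Zfp710 window holds 4 CpG dinucleotides, against 36 for Zfp367, 30 for Zfp292 and 21 for Zfp617.

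Such matches were no rarity among the Zfp genes or elsewhere. A window was found for 147 of the 183 genes and for 7785 tested genes. The ETS motif stood in 23.1% of the Zfp windows and 19.7% of the windows of all tested genes, and the YY1 motif in 12.2% and 7.89%. The E2F motif stood in 11.6% and 8.89%, and the E-box in 8.16% and 10.4%. The median window of a Zfp gene held 17 CpG dinucleotides, and that of a tested gene 21. Matches of different motifs may overlap by a few letters, the E-box reads the same on both strands, and a match is a string of letters only.

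Zfp367 encodes a C2H2 factor also called ZFF29. Its wildtype levels ran from 7.78 (wildtype 2) through a median of 8.09 to 8.31 (wildtype 3). Its null levels ran from 7.47 (null 5) through a median of 7.59 to 7.82 (null 2). The groups overlapped at 1 point only, with wildtype 2 below null 2. Zfp367 was lower by 0.46 on the log2 scale in null cells (log2 change -0.46, SE 0.098, limma adjusted p = 0.040), a 1.37-fold difference. A second, dimmer probe gave -0.40 (SE 0.13, limma adjusted p = 0.13). On BeadChip 1 the change was -0.50 and on BeadChip 2 it was -0.42.

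Zfp710 was the one gene of the family that was both called and fully separated downwards. Wildtype levels ran from 8.97 to 9.21 with a median of 9.05, and null levels from 8.54 (null 5) to 8.89 (null 2) with a median of 8.68. Every null array lay below every wildtype array. It fell by 0.37 on the log2 scale (SE 0.082, limma adjusted p = 0.047), with changes of -0.52 on BeadChip 1 and -0.22 on BeadChip 2.

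Zfp617 lay at the edge of detection. It was detected on 0 of 6 wildtype arrays, where it ran from 4.53 to 4.86 with a median of 4.65, and on 5 of 6 null arrays, where it ran from 4.91 (null 2) to 5.22 (null 6) with a median of 5.09. The lowest null array lay above the highest wildtype array. The fitted log2 change was 0.38 (SE 0.083, limma adjusted p = 0.046). Since the wildtype signal was below detection, the fold is a bound, and null cells were at least 1.10-fold higher. That bound sets the null mean against the lowest detected signal on each wildtype array, or the probe's own signal where that was higher.

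These calls rested on thin margins. Leaving out 1 array ended the call of Zfp367 in 10 of 12 cases, and those of Zfp710 and Zfp617 in 11 of 12 each, while without null 2 the number of called Zfp genes was 5. Without null 3 and null 5, the arrays of highest myeloid and interferon markers, 0 Zfp genes were called by limma, while the log2 changes stayed about as large, at -0.42 for Zfp367, -0.35 for Zfp710 and 0.37 for Zfp617. That fit holds 4 null arrays in place of 6. It kept null 6, which stood above null 3 in the interferon list (2.93 against 1.95).

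**Figure D1:**
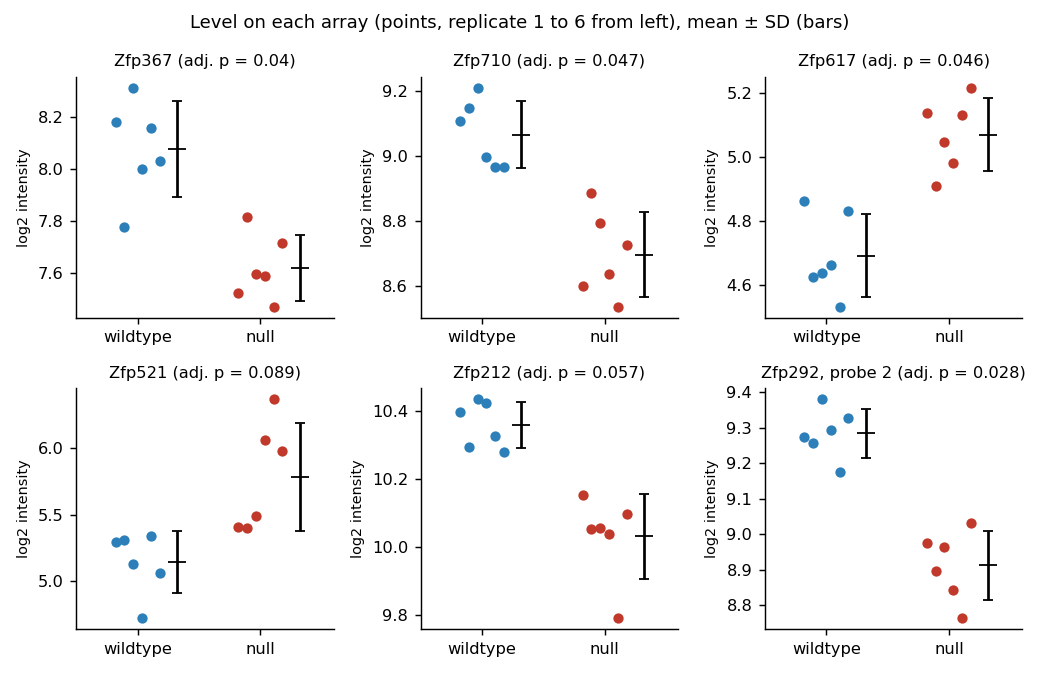
Log2 intensity (vertical axis) of 6 probes on each of 6 wildtype (blue) and 6 null (red) arrays, in replicate order from left to right, with the mean and SD beside each group. Zfp710, Zfp212 and the second Zfp292 probe show every null array below every wildtype array, Zfp617 and Zfp521 the reverse, and Zfp367 overlaps at 1 point. The title of each panel gives the limma adjusted p.

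Full separation of the groups was seen for 11 Zfp genes on the brightest probe of each. Every null array lay below every wildtype array for 8 of them, or 4.37%, against 1.63% of all probes: Zfp212, Zfp281, Zfp397, Zfp472, Zfp62, Zfp710, Zfp777 and Zfp87. Further tested probes of Zfp212, Zfp281, Zfp472, Zfp62 and Zfp87 all had overlapping groups. Every null array lay above for 3, or 1.64%, against 1.38% of all probes: Zfp365, Zfp521 and Zfp617. Of these, Zfp365 and Zfp617 met the detection rule through null arrays alone, so their separation was favoured by the selection. At an unadjusted p under 0.05 stood 44 Zfp genes, or 24.0%, against 18.1% of all probes. Of these 44, 38 were lower and 6 higher in null cells. Among all probes, 3187 stood under that threshold, 1881 of them lower and 1306 higher.

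Zfp212 was the brightest of the separated genes. Its wildtype levels ran from 10.28 to 10.44 with a median of 10.36, and its null levels from 9.79 (null 5) to 10.16 with a median of 10.05. The gap between the groups was narrow, and its change of -0.33 (SE 0.076, limma adjusted p = 0.057) did not pass the test. Zfp212 had 5 tested probes, and these values are of the brightest. The others gave -0.28, -0.13, -0.011 and -0.007, with limma adjusted p from 0.22 to 0.98 and overlapping groups. Zfp62 changed by -0.35 (limma adjusted p = 0.058), Zfp472 by -0.30 (0.073), Zfp281 by -0.27 (0.091) and Zfp87 by -0.23 (0.092). Their further probes gave -0.24 (limma adjusted p = 0.33), -0.12 (0.49), -0.07 (0.74) and -0.10 (0.66), in the same order of genes. Zfp281 encodes a GC-box binding factor studied in embryonic stem cells. On the brightest probes, Zfp87 had the tightest null values of these genes, from 8.55 to 8.62, below wildtype values from 8.70 to 8.90. Separation with a limma adjusted p over 0.1 was seen for Zfp397 at -0.51 (0.12) and Zfp777 at -0.32 (0.10).

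Zfp521 had the highest fitted rise of the family. Known as Evi3, a site of retroviral insertion in mouse B-cell lymphoma, it encodes a cofactor that binds Ebf1 and curbs its activity. Its wildtype levels ran from 4.72 (wildtype 4) to 5.34 with a median of 5.21, and its null levels from 5.40 (null 2) to 6.37 (null 5) with a median of 5.73. Null 4, 5 and 6, all on BeadChip 1, were the high ones, and null 1, 2 and 3 lay just above the wildtype range. The change was 0.65 (SE 0.18, limma adjusted p = 0.089), at 0.90 on BeadChip 1 and 0.39 on BeadChip 2. With BeadChip as a block in the fit the limma adjusted p was 0.032, and 4 Zfp genes were called in place of 3. Null 5 and null 6, with levels of 6.37 and 5.98, were also the arrays of highest plasmacytoid dendritic markers, while null 4, with 6.06, stood 0.40 above the wildtype mean in those markers. Their part in the Zfp521 values was not tested.

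Among the other 7 genes of highest fitted rise, Zfp617 passed the test and 6 did not. Zfp365 stood at 0.63 (SE 0.27, limma adjusted p = 0.24), and 1 array, null 4 at 6.69, lay far above the other null arrays, which ran from 4.73 to 4.99. Zfp524 stood at 0.40 (limma adjusted p = 0.20), with null 5 at 8.27 above all others. Zfp703, an oncogene of human breast cancer, stood at 0.33 (0.23), and Zfp523, a relative of the promoter-binding activator Zfp143, at 0.31 (0.24). Zfp313, the ubiquitin ligase gene Rnf114, stood at 0.27 (0.38), with its highest levels in null 5 (9.24) and null 6 (8.97). Its change was 0.57 on BeadChip 1 and -0.03 on BeadChip 2. Zfp809, a KRAB protein that silences murine leukaemia provirus in embryonic stem cells, stood at 0.25 (0.53) with levels from 5.42 to 6.69 within wildtype alone.

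The genes of lowest fitted change also missed the test apart from Zfp367. Zfp689 stood at -0.54 (SE 0.16, limma adjusted p = 0.11), with wildtype levels from 5.58 to 6.25 and null levels from 5.08 to 5.91. Zfp41 stood at -0.50 (SE 0.14, limma adjusted p = 0.088), and its second probe at -0.65 (limma adjusted p = 0.099). The groups overlapped for both genes. Zfp160 stood at -0.44 (0.10), Zfp606 at -0.43 (0.17), Zfp760 at -0.41 (0.11) and Zfp382 at -0.39 (0.23), where null 5 was low at 4.88. In all, 5 Zfp genes had a fitted change beyond 0.5 in size, 0 had one beyond 1, and 136 of 183 stayed within 0.25.

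**Figure D2:**
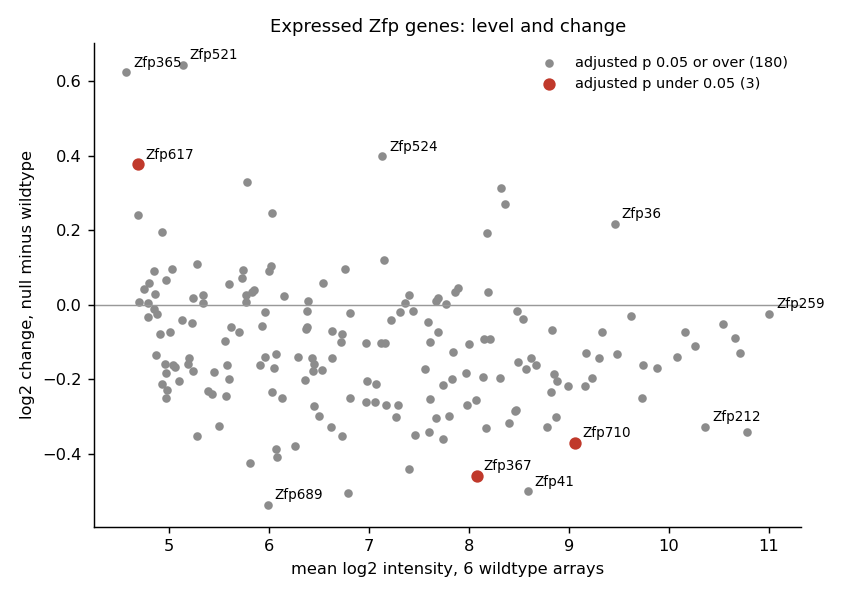
Fitted log2 change of each of the 183 Zfp genes (vertical axis, null minus wildtype) against its mean log2 intensity on the 6 wildtype arrays (horizontal axis), with the 3 genes that passed the test in red. Most points lie below 0, 137 of 183, and the points below 0 make up 45 of the 50 genes at a level of 8 or over.

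Of 17 Zfp genes listed for a known part in B cells, RNA control or chromatin, 0 passed the limma test on their brightest probe, and Zfp292 passed on a second probe. Zfp318, which mature B cells need to make IgD transcripts, stood at 7.87 ± 0.25 in wildtype and 7.90 ± 0.15 in null cells (SD, n = 6 each). Zfp36 encodes tristetraprolin, a CCCH protein that speeds the decay of AU-rich cytokine mRNA. It ran from 9.35 to 9.58 in wildtype cells and from 9.22 (null 4) to 10.05 (null 3) in null cells, a change of 0.22 (SE 0.13, limma adjusted p = 0.40). Its null SD of 0.33 was wider than the wildtype SD of 0.083, with null 4 and null 6 low and the other 4 high.

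Zfp143, an activator that binds many promoters and sites of chromatin contact, stood at -0.36 (SE 0.13, limma adjusted p = 0.17). Zfp445, which guards imprints in mouse and human, stood at -0.33 (0.30), Zfp148 at -0.26 (0.36), and Zfp106, an RNA-binding protein, at -0.18 (0.30). Zfp207 (BuGZ), which helps load the checkpoint protein Bub3 at kinetochores, stood at -0.07 (0.73), and Zfp91 at -0.07 (0.82). Zfp238 (Zbtb18), a repressor, stood at -0.09 (0.69), Zfp335 at 0.04 (0.90), Zfp42 at 0.01 (0.99), and Zfp217, an oncogene of human breast cancer, at 0.19 (0.53).

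Zfp161 (Zbtb14), a repressor first found at the Myc promoter, is the Zfp gene nearest to Smchd1 on chromosome 17, 32 annotated genes away. It stood at 6.39 ± 0.25 in wildtype and 6.37 ± 0.20 in null cells (SD, n = 6 each), a change of -0.02 (SE 0.13, limma adjusted p = 0.96). Of the 15 Zfp genes on chromosome 17, 9 were lower and 6 higher, and 0 were called.

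Across the family the fitted changes leaned to lower values in null cells. Of 183 genes, 137 had a fitted change below 0, or 74.9%, against 58.2% of all probes. The median change was -0.13, against -0.04 for all probes, and the middle 50% of the genes ran from -0.23 to -0.01. No test was made of the list as a whole. Genes were counted here whether or not they passed the limma test.

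The lean was seen in genes of all levels and was least among dim ones. Below a wildtype level of 6, 36 of 61 Zfp genes were lower (59.0%, median -0.05), against 53.0% of all probes. From 6 to 8, 56 of 72 were lower (77.8%, median -0.14), against 61.5%. At 8 and over, 45 of 50 were lower (90.0%, median -0.16), against 60.8%. Bright Zfp genes with higher values in null cells were therefore few, and Zfp36, Zfp523 and Zfp313 were among them.

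The null arrays did not share the lean evenly. Over the 183 genes, the median deviation from each gene's wildtype mean was -0.04 in null 1 and -0.02 in null 2. It was -0.17 in null 3, -0.16 in null 4, -0.22 in null 5 and -0.12 in null 6. The 6 wildtype arrays ran from -0.04 to 0.02, so null 2 stood within the wildtype range, null 1 at its lower edge and the other 4 null arrays below it. The share of Zfp genes below their wildtype mean was 56.3% in null 1, 53.6% in null 2, 77.0% in null 3, 72.7% in null 4, 75.4% in null 5 and 65.6% in null 6. For all tested probes the null medians ran from -0.11 (null 5) to 0.01 (null 2), so the arrays where Zfp genes were lowest were also those where all probes were lowest.

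Markers of other cells moved with this order in part. By mean deviation from wildtype, null 3 had the highest myeloid (3.41) and erythroid (1.33) lists, and null 5 the highest interferon (3.80), plasmacytoid dendritic (2.36), T and NK (1.74) and plasma (0.92) lists. Null 6 followed null 5 in the interferon (2.93) and plasmacytoid dendritic (1.47) lists. The pre-B list stood below the wildtype mean in 5 of 6 null arrays. It was at -1.25 in null 5, -0.56 in null 1, -0.51 in null 2, -0.45 in null 6 and -0.29 in null 3. The Zfp medians of null 1 and null 2 were near 0. In null 4 the Zfp median was -0.16, and the myeloid list was 0.56 and the erythroid list 0.90 below the wildtype mean. The T and NK list was 0.20 above it there, the plasma list 0.26, the plasmacytoid dendritic list 0.40, the interferon list 0.40 and the pre-B list 0.54. The myeloid list (9 of 12 genes tested) had a mean level from 8.26 to 9.19 over the wildtype arrays and from 8.22 to 12.19 over the null arrays, and the T and NK list (8 of 11) from 5.69 to 5.94 and from 5.90 to 7.54. The plasmacytoid dendritic list (7 of 8) ran from 9.11 to 10.06 and from 9.50 to 11.88, and the interferon list (8 of 10) from 5.47 to 6.24 and from 5.54 to 9.52. Of every marker list 0 genes were called by limma, and the plasmacytoid dendritic marker Ccr9 did not meet the detection rule. With null 3 and null 5 left out, 126 of 183 Zfp genes were lower (68.9%, median -0.08), against 52.4% of all probes. The part of other cells in the Zfp values was not tested.

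**Figure D3:**
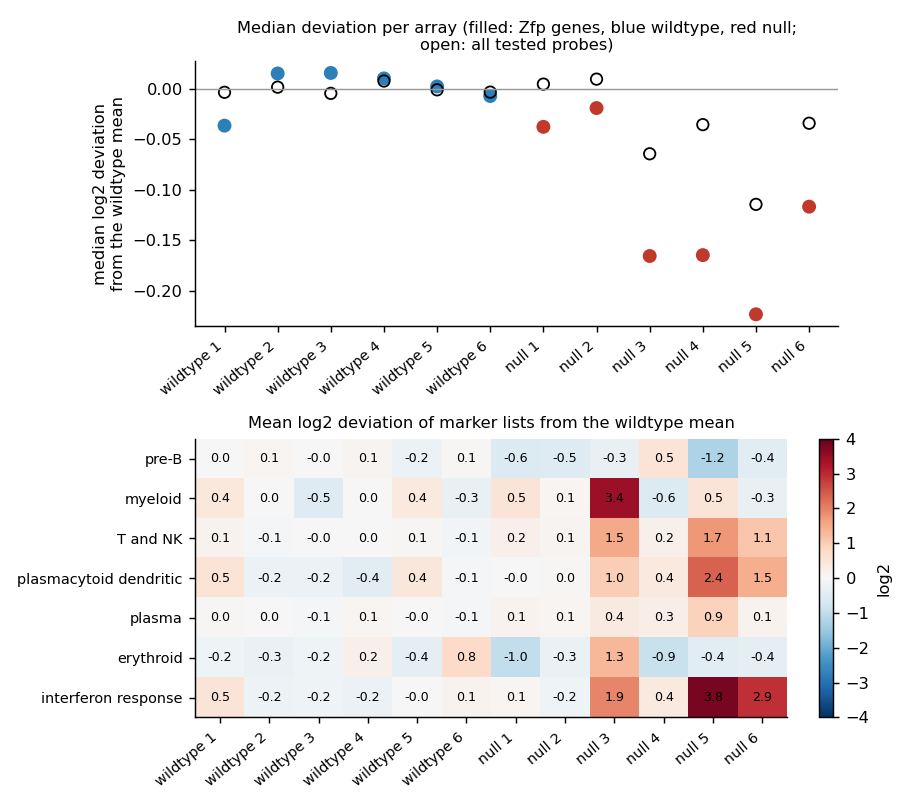
Upper panel: median log2 deviation from the wildtype mean on each array (vertical axis), for the 183 Zfp genes (filled, blue for wildtype and red for null) and for all tested probes (open). Lower panel: mean log2 deviation of 7 marker lists on the same arrays. Null 3, 4, 5 and 6 lie lowest for the Zfp genes, and null 3, 5 and 6 carry the raised marker lists.

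Both BeadChips showed the lean, BeadChip 1 the more. On BeadChip 1, 141 Zfp genes were lower in the null arrays (median -0.17, all probes -0.06), and on BeadChip 2, 129 were lower (median -0.08, all probes -0.01). Lower on both were 108 genes, or 59.0%, against 37.8% of all probes, and higher on both were 21. The difference between the BeadChips was itself tested with limma, as an interaction of genotype with BeadChip. It was called for 0 Zfp genes and for 0% of all probes, and it had an unadjusted p under 0.05 for 10 Zfp genes (5.46%) and 5.72% of all probes.

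Spread within a group also differed. The null SD was larger than the wildtype SD for 119 of 183 Zfp genes (65.0%), against 74.2% of all probes. The median null SD of the Zfp genes fell from 0.21 to 0.19 without null 3 and null 5. For all probes it was 0.23 with those arrays and 0.19 without them. Within wildtype cells the widest SDs belonged to Zfp69 (0.50), a KRAB gene tied to diabetes in obese mice, Zfp809 (0.48), Zfp457 (0.46) and Zfp758 (0.41). All 4 were dim or moderate, with wildtype means of 5.28, 6.03, 5.04 and 5.25.

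Second probes of the same genes pointed mostly the same way. Of the 183 genes, 65 had more than 1 tested probe, and 70 of the 81 further probes (86.4%) had a fitted change of the same sign as the gene's brightest probe. These probes read the same RNA samples, so they check the probe and not the samples. Of the 81, 1 was called, or 1.23%, against 1.22% of all probes. It was a second probe of Zfp292, which encodes a large zinc finger protein first described as an activator of growth hormone in rat pituitary. On that probe wildtype levels ran from 9.18 to 9.38 with a median of 9.28, and null levels from 8.76 (null 5) to 9.03 (null 6) with a median of 8.93. The groups did not overlap, and the change was -0.37 (SE 0.071, limma adjusted p = 0.028). The brightest Zfp292 probe gave -0.20 (SE 0.13, limma adjusted p = 0.43) and another probe -0.34 (SE 0.18, limma adjusted p = 0.34), and their groups overlapped. Zfp511 was named here after its values were seen. Zfp511 had probes of opposite sign, at -0.03 and 0.29, neither of them called.

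Zfp genes sit together in the genome, and 43 of the 183 lay in 9 runs of at least 3 Zfp genes. Within a run, each lay no more than 10 places from the next in the order of annotated genes. Chromosome 7 held 47 of the genes, 34 of them lower, and chromosomes 13 and 17 held 15 each. The longest run, on chromosome 7, joined Zfp790, Zfp27, Zfp383, Zfp74, Zfp82, Zfp566, Zfp260 and Zfp382. In it 6 of 8 genes were lower, with a median change of -0.14. The run on chromosome 6 that holds Zfp212 and Zfp777 also took in Zfp786, Zfp398, Zfp282 and Zfp746, and 4 of its 6 genes were lower. The run of 7 on chromosome 13 (Zfp457 to Zfp748) had 5 lower, with a median of -0.07. No gene of any run was called, the lowest limma adjusted p among them being 0.057 for Zfp212, and signs were mixed in 7 of the 9 runs. Close relatives in such runs can share sequence under a probe, which was not tested. Of the 3 Zfp genes on the X chromosome, 1 was lower and 2 higher, and 0 were called.

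Other families named for zinc fingers were measured in the same fit. Of 18 tested Zbtb genes, whose fingers are joined to a BTB domain, 16 were lower with a median of -0.14 and 0 were called. All 10 tested Zscan and Zkscan genes were lower, with a median of -0.19, and 0 were called. In 2 cases such a gene is also one of the 183 under an older name. Zfp496 (Zkscan17) gave -0.34 (limma adjusted p = 0.15) and the probe labelled Zkscan17 gave -0.28 (0.34), while Zfp99 (Zkscan14) gave -0.25 (0.26) and the probe labelled Zkscan14 gave -0.29 (0.17). The Klf genes, which bind GC boxes, went the other way: 7 of 8 were higher, with a median of 0.12, and 0 were called. Under median scaling 5 of 8 Klf genes were higher, with a median of 0.14. Without null 3 alone 5 of 8 were higher, and the median was 0.05. The median was 0.06 without null 3 and null 5, 0.02 on BeadChip 1 alone and 0.05 with no background correction. Of 5 tested Zfp genes with a letter after the digits 3 were lower, and of 3 Ikzf genes 2, with 0 called in either. Ikzf1 (Ikaros), a regulator of lymphoid fate, gave -0.39 (SE 0.10, limma adjusted p = 0.077) with every null array below every wildtype array. At an unadjusted p under 0.05 stood 6 Zbtb genes (33.3%), 2 Zscan or Zkscan genes (20.0%), 1 Klf gene (12.5%), 1 Ikzf gene (33.3%) and 3 letter-suffixed Zfp genes (60.0%), against 18.1% of all probes. These groups are small and share all 12 arrays with the Zfp genes, and differences between families were not tested.

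**Figure D4:**
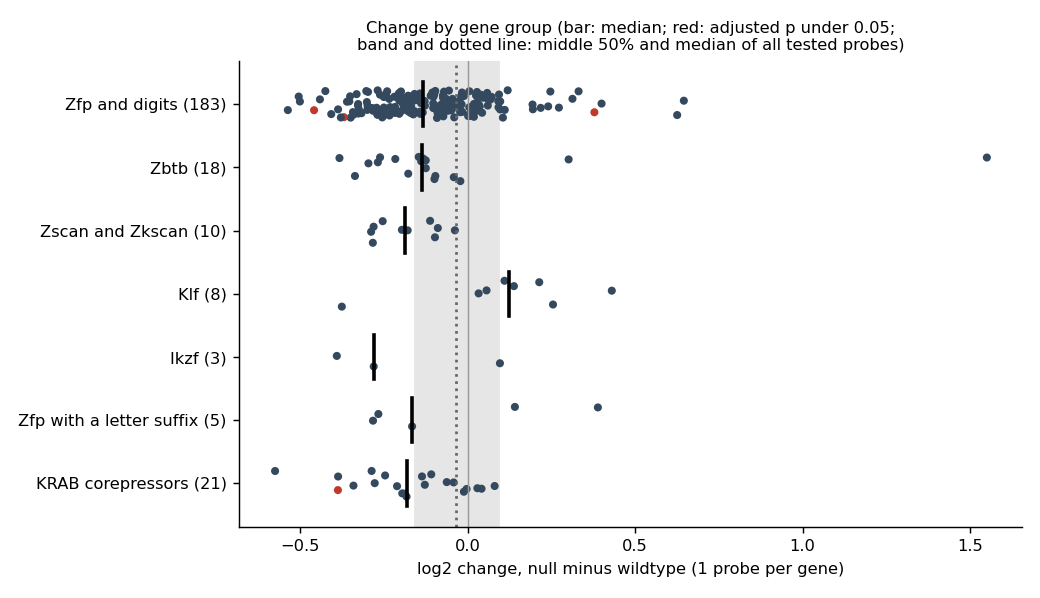
Fitted log2 change, null minus wildtype, of each gene (points, 1 probe per gene) in 7 gene groups, with the group median as a bar and genes that passed the limma test in red. The shaded band and dotted line give the middle 50% and the median of all tested probes. The Zfp median of -0.13 lies left of the line, beside those of the Zbtb and Zscan groups, and the Klf median of 0.12 lies right of it. The point farthest right is Zbtb32.

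A corepressor list held 27 genes, KRAB corepressors and wider chromatin genes, of which 24 were on the array and 21 tested. A place on it does not show that a gene acts with KRAB proteins. Of the 21, 1 was called, 4.76% against 1.22% of all probes, and 18 were lower, with a median change of -0.18. Trim33 (TIF1 gamma), a relative of Trim28, fell in null cells on the brightest of its 4 tested probes. The other Trim33 probes are not described here. The brightest probe ran from 8.12 to 8.21 in wildtype cells with a median of 8.19. In null cells it ran from 7.62 to 7.96 with a median of 7.80. The groups did not overlap, and the change was -0.39 (SE 0.073, limma adjusted p = 0.025). It was no longer called without null 3, without null 3 and null 5 together, or without any 1 of wildtype 1, 2, 3, 4 and 6. Its change without null 3 and null 5 was -0.36, close to that over all arrays. Of the 21 genes, 16 were then lower, with a median of -0.07. Chd3, a NuRD remodeller, stood at -0.58 (SE 0.16, limma adjusted p = 0.088), and Atf7ip, a partner of Setdb1, at -0.28 (SE 0.078, limma adjusted p = 0.096).

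For the core pair of the pathway no difference was detectable. Trim28 stood at 12.05 ± 0.14 in wildtype and 12.04 ± 0.12 in null cells, and Setdb1 at 8.14 ± 0.10 and 8.14 ± 0.20 (SD, n = 6 each). Their limma adjusted p-values were 0.96 and 0.99, with standard errors of 0.086 and 0.096 on the log2 change.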

How the data were processed

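RNA of 12 sorted pre-B samples was hybridised to 1 Illumina mouse array each. Per the file headers, the deposited intensity values are unlogged bead means. A deposited detection score, a fraction, is the complement of the deposited detection p-value. A further deposited table holds the authors' log2 values. GenomeStudio 1.8.0 appears in the file headers, and R 2.15.1, limma 3.12.1 and BeadStudio in the submitters' processing notes. The genome build was not given in the sources used.

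Intensities were background-corrected with 936 negative control probes, quantile normalized and logged to base 2 by neqc (offset 16) in limma 3.58.1 under R 4.3.3. The result differed from the authors' log2 values by at most 5.0e-09. Probes detected on at least 3 of 12 arrays, 17607 of 45281, were fitted for genotype alone with lmFit and eBayes, with Benjamini-Hochberg adjustment across the whole set. The fit was checked on simulated data.

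The members and lists were chosen with earlier results of these data known. Named were called genes, the 8 largest rises and 8 largest falls, the 6 highest and 6 lowest levels, the 4 widest wildtype SDs, members within 100 genes of Smchd1, members of known role, and the 3 corepressors of smallest p. Genes whose groups did not overlap, genes at the detection limit and the other finger genes named were added after their values were seen. Grouping by protein domains was not done. Names, gene order and promoters came from RefSeq tables of GRCm38.p6. Alternatives covered blocks, normalization, background, filters, weights, prior, single BeadChips and arrays left out. Precision is limited by the number of arrays.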

Additional observations from a re-analysis of the deposited data

Results flagged for a closer look

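Among 44 named Zfp genes, Smchd1 and 3 corepressor genes, 96 groups of 6 arrays were searched for 1 array far from the other 5. In all 9 were found, all in Zfp genes. Chance alone flags about 1 in 20 groups when genes are not picked by their values. Some of these genes were named for large changes or wide SDs in the same values, so that rate cannot judge the count. Of the 9, 7 were null arrays, 3 of them null 5. Zfp365 stood at 6.69 in null 4, and the next null array at 4.99. Zfp524 stood at 8.266 in null 5, with the next at 7.55, and Zfp42 at 5.458 in null 6, with the next at 4.69. Zfp318 stood at 8.192 in null 6, with the next at 7.90.

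Low values set the others apart. Zfp382 stood at 4.877 in null 5, where the next null array was at 5.71 or above, Zfp212 at 9.791 in null 5 (next 10.04) and Zfp131 at 10.25 in null 4 (next 10.59). In wildtype cells Zfp277 was low at 10.25 in wildtype 1 (next 10.54), and Zfp397 was high at 7.251 in wildtype 3 (next 6.72).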

How the results depend on the processing

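The number of Zfp genes called, 3, was 0 with the replicate number as a block (replicate block), with null 3 and null 5 left out, on BeadChip 1 alone, on BeadChip 2 alone and under median scaling, and 8 with no background correction. It ran from 0 to 5 when 1 array was left out. It was 4 with BeadChip as a block and with array weights, 3 with a trended and robust prior and with the deposited values, and 2 with no filter or a stricter one. The 1 corepressor called became 0 in the same 5 settings that gave 0 Zfp genes, 2 with no background correction, and 0 to 1 with 1 array left out. The count for the interaction was 0 in every setting in which it was computed.

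The median change over the Zfp genes, -0.133, was -0.058 with no background correction, ran from -0.153 to -0.100 with 1 array left out, and was -0.172 under median scaling, where all probes had -0.085. Under that scaling all probes gave 59 higher and 33 lower calls, against 94 and 121 in the main setting. Over all probes the calls were 215, and 104 with the replicate block, 304 with BeadChip as a block and 101 with no filter. Same-numbered null and wildtype arrays correlated at -0.294 to 0.0849, and no array correlated best with its own number. Each same-numbered pair lay on opposite BeadChips, so these correlations cannot decide whether the numbers pair samples.

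Of 1146 values of 48 genes under other settings, 1073 kept their side of the threshold, 64 lost a call, 9 gained one and 0 called values reversed. Among the 1073 the sign of an uncalled change turned in 46 cases, over 13 genes. The causes were not tested. Signal near background limits what can be said of the dim genes.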

Other observations

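Zbtb32, a repressor of activated lymphocytes, had the largest fitted change among the finger genes outside the Zfp symbols. It was detected on 0 wildtype and 6 null arrays, so it met the detection rule only through the group where it was high. Its level was 4.48 ± 0.097 in wildtype and 6.03 ± 1.19 in null cells (SD, n = 6 each). Null 5 stood at 8.33 and the other null arrays from 5.14 to 6.19. The limma adjusted p was 0.089 and null cells were at least 2.14-fold higher. Among the Klf genes, Klf6 stood at 0.43 (limma adjusted p = 0.29), Klf16 at 0.25 (0.15), with every null array above every wildtype array, and Klf9 at -0.38 (0.37). On the corepressor list but not called was Uhrf1, which couples DNA methylation to replication, at -0.39 (limma adjusted p = 0.15). Its partner Dnmt1 stood at -0.34 (0.17). The HP1 gene Cbx3 stood at -0.29 (0.27) and Tasor, a subunit of the HUSH silencing complex, at -0.21 (0.20).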
